A study of Homo sapiens with 12 samples.

Results

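The NF-kB pathway and inflammatory cytokine genes described here are 40 genes taken from a list of names: 5 NF-kB subunits, 8 inhibitors and feedback regulators, 4 signalling proteins, 10 cytokines and growth factors, 8 chemokines and 5 other targets. Of the 60617 genes in the table, all 40 were found, and 29 of them had a mean normalised read count of at least 5 and entered the tests. The other 11 are given by their reads only. The list came from names and not from measured values, but it was drawn up with earlier results of these data known. RNA was sequenced from cultures of PANC-1, an established line from a human pancreatic carcinoma, labelled as wild type and grown in DMEM with serum. The 4 groups held 3 libraries each: siGL3, a control siRNA that targets firefly luciferase, siMYOF, which targets MYOF, DMSO as solvent, and WJ460 at 50 nM, a small molecule that the study uses against myoferlin, the protein MYOF encodes. The labels give 48 h for each library, counted from transfection or treatment in the series description and, for the siRNAs, from a later wash in the methods. There was 1 cell line, 1 siRNA sequence for MYOF is described, and 1 dose of WJ460. The methods describe separately seeded cultures for the knockdown, while for DMSO and WJ460 nothing used here says so. The p-values reflect the spread among the libraries sequenced, for DMSO and WJ460 possibly a technical one. Each gene had 1 variance fitted over all 12 libraries, so the p-values of a comparison also rest on the groups outside it.

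NF-kB is a family of transcription factors built as pairs of RELA, RELB, REL, p50 (from NFKB1) and p52 (from NFKB2). In resting cells, the IkB proteins hold these pairs in the cytoplasm, and receptors for cytokines or microbial products release them through the IkB kinase complex, while a slower route through the kinase NIK yields p52 with RELB. Released pairs bind kappaB sites in DNA and drive genes for cytokines, chemokines and adhesion molecules, as well as their own inhibitors, such as NFKBIA and TNFAIP3. Pancreatic cancer cells are known to use this pathway for survival and to attract other cells. The libraries measured messenger RNA and not protein, so a level here says nothing of NF-kB in the nucleus.

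MYOF, the target of the siRNA, measured 12786, 20168 and 17823 normalised reads in siGL3 and 3470.2, 2372 and 2003 in siMYOF, a log2 fold change of -2.71 (adjusted p = 2.41e-05, SE 0.23). In DMSO and WJ460, MYOF measured 21148, 20492 and 19950.2 and 20151, 26083 and 22887, with a log2 fold change of 0.16 (95% interval -0.39 to 0.70, adjusted p = 0.603). Here and throughout, a normalised read count is a count divided by the size factor of its library, the 3 values of a group are in the order of replicates 1, 2 and 3, and log2 fold changes come from log2(value + 1), which understates changes of genes with few reads. Replicate 1 of siGL3 and of siMYOF carry an earlier batch label than the other 10 libraries (early and late below). Libraries held 12335147 to 19847210 reads. The siMYOF effect on MYOF itself was -1.88 for the early pair and -3.12 among late libraries, the early value being 1 library against 1. Of 8 epithelial markers, 7 had a mean of at least 5, with summed levels of 11464 to 24649 in siGL3, 15222 to 28716 in siMYOF, 25449 to 26399 in DMSO and 30496 to 39300.3 in WJ460. Of 12 leukocyte markers, 3 reached that mean, CD3D, FCGR3A and MS4A1 had no read in any library, and the summed level was 11.03 to 19.7 in DMSO, 23.0 to 40.4 in WJ460, 21.5 to 48.6 in siGL3 and 48.6 to 69.4 in siMYOF. Of 12 fibroblast and endothelial markers, 2 reached it, with DCN, FAP, LUM and PDPN at 0 and summed levels of 824 to 884 in DMSO, 437 to 604 in WJ460, 460.4 to 1345 in siGL3 and 536 to 1159 in siMYOF. Mitochondrial genes took 2.95 to 3.101% of the reads in DMSO and 3.88 to 5.06% in WJ460. The early libraries stood apart, with mitochondrial shares of 3.81% in siGL3 and 4.72% in siMYOF against 2.84 to 3.21% in the late siRNA libraries, and with 23060.0 and 22706 genes with a read against 19144 to 19754 in the late siRNA libraries. What part these marker sums and shares have in the results below was not tested.

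Promoters are shown first because the kappaB site is what the targets of this pathway share in DNA. The list was made from names in this pathway, targets among them, so a higher share of matches here is no independent result. RefSeq promoters (GRCh38.p14, 250 bases before to 50 after the gene start, as RefSeq places it) were at hand for 34 of the 40 members, and those of LIF, RELB, CSF1, CX3CL1, CCL2 and NFKBIE were not analysed. The kappaB consensus, a motif of 10 letters searched on both strands, lay in 15 of the 34 member promoters (44.1%) and in 1562 of 27305 promoters of the same length over all genes (5.72%). A match is a description of letters and not a site shown to be bound. The windows below were chosen from members that changed under a treatment or lie in the chemokine cluster, with the 10 matched letters in capitals, and each is written 5′ to 3′ on the strand of its gene.
NFKBIA, chr14:35404813-35404838, minus strand: actggcttGGAAATTCCCcgagcctg
BIRC3, chr11:102317277-102317302, plus strand: tgggtcatGGAAATCCCCgagtgggt
BIRC3, chr11:102317341-102317366, plus strand: ttaccgctGGAGTTCCCCtaagtcct
NFKB1, chr4:102501302-102501327, plus strand: acgtcagtGGGAATTTCCagccagga
NFKBIZ, chr3:101827759-101827784, plus strand: tttggtctGGGAATTTCCagtgtgca
TNFAIP3, chr6:137867184-137867209, plus strand: gtgactttGGAAAGTCCCgtggaaat
TNFAIP3, chr6:137867196-137867221, plus strand: agtcccgtGGAAATCCCCgggcctac
IL32, chr16:3065296-3065321, plus strand: tgtactcaGGGAGTTTCCccagccag
CXCL1, chr4:73869306-73869331, plus strand: ggaactccGGGAATTTCCctggcccg
CXCL2, chr4:74099256-74099281, minus strand: ggagctccGGGAATTTCCctggcccg
CXCL3, chr4:74038751-74038776, minus strand: ggagctccGGGAATTTCCctggcccg
The letters GGGAATTTCC, on one strand or the other, occurred in 8 members: NFKB1, NFKBIA, NFKBIZ, REL, CXCL1, CXCL2, CXCL3 and CXCL5. In NFKBIA the match lies on the other strand, so its capitals read as the reverse complement. Of all promoters, 0.161% held these letters. The windows of CXCL2 and CXCL3 were identical. The members without a match included several with changes under both treatments, such as ICAM1, EDN1 and BIRC2, which says only that these letters are not in this window.

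**Figure D1:**
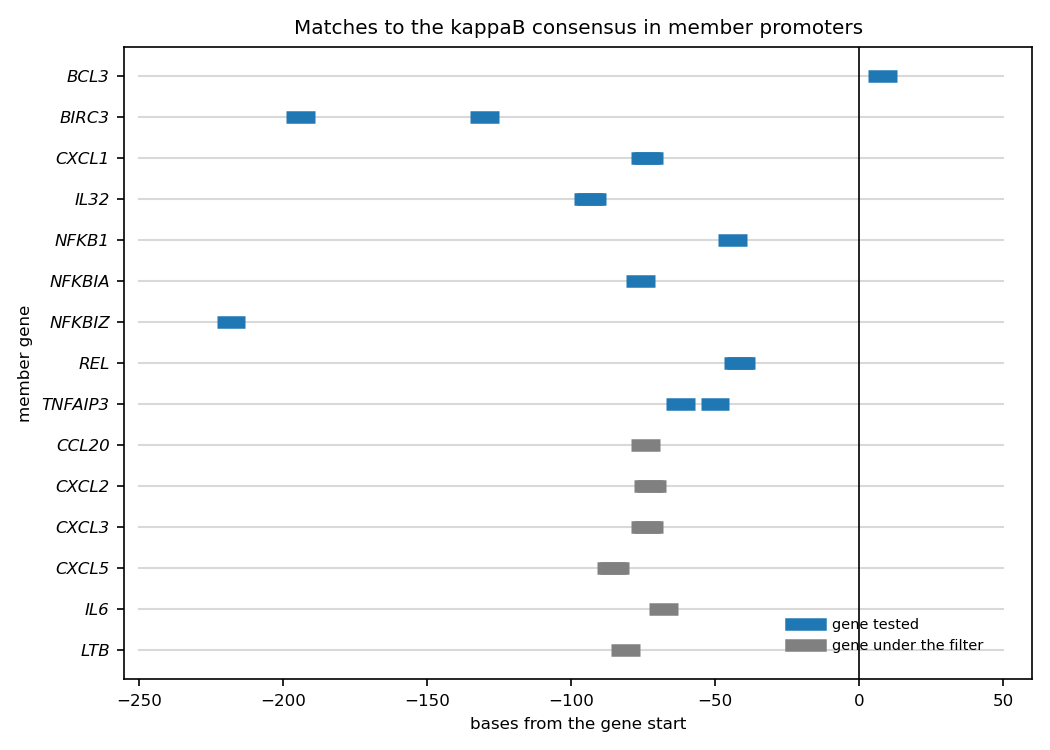
Positions of matches to the kappaB consensus in the promoters of 15 members, in bases from the RefSeq gene start (0), with members that were tested in blue and members under the low-value filter in grey. Each grey line is 1 promoter, from 250 bases before to 50 after the start, and 14 of the 15 members have their matches before the start, BCL3 being the exception.

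Matches were then counted by response. Among tested members with a promoter, the motif was present in 4 of 10 that were higher in siMYOF, 0 of 3 that were lower and 5 of 10 that did not pass, and in 5 of 13 higher, 1 of 3 lower and 3 of 7 not passed for WJ460. The 5 with a match among those higher in WJ460 include IL32, which entered the tests only through its WJ460 libraries. Of the 11 members under the filter, 6 had a match, among them IL6, CXCL2 and CCL20. A looser form, in which any base may stand at the 5 central positions, was found in 88.2% of member promoters and 58.0% of all promoters.

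The effect of knocking down MYOF was read from siMYOF against siGL3, and that of the compound from WJ460 against DMSO. In siMYOF, 11 of the 29 members were higher, 5 were lower and 13 did not pass an adjusted p of 0.05, against 28.0% higher and 25.9% lower over the 14720 genes tested. In WJ460, 17 were higher, 5 were lower and 7 did not pass, where 27.3% of all genes were higher and 25.6% lower. One of the 17, IL32, entered the tests only through its high level in WJ460, and without it 16 of 28 were higher. The median log2 fold change over the members was 0.13 in siMYOF and 0.57 in WJ460, and over all genes it was 0.011 and 0. The median in siMYOF was small beside its own range, since leaving out 1 library moved it between -0.069 (without siGL3 replicate 3) and 0.15, and the early pair and the late libraries gave 0.010 and 0.026. Since these are whole cultures, a change in RNA per cell and a change in the share of cells that make it cannot be told apart.

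**Figure D2:**
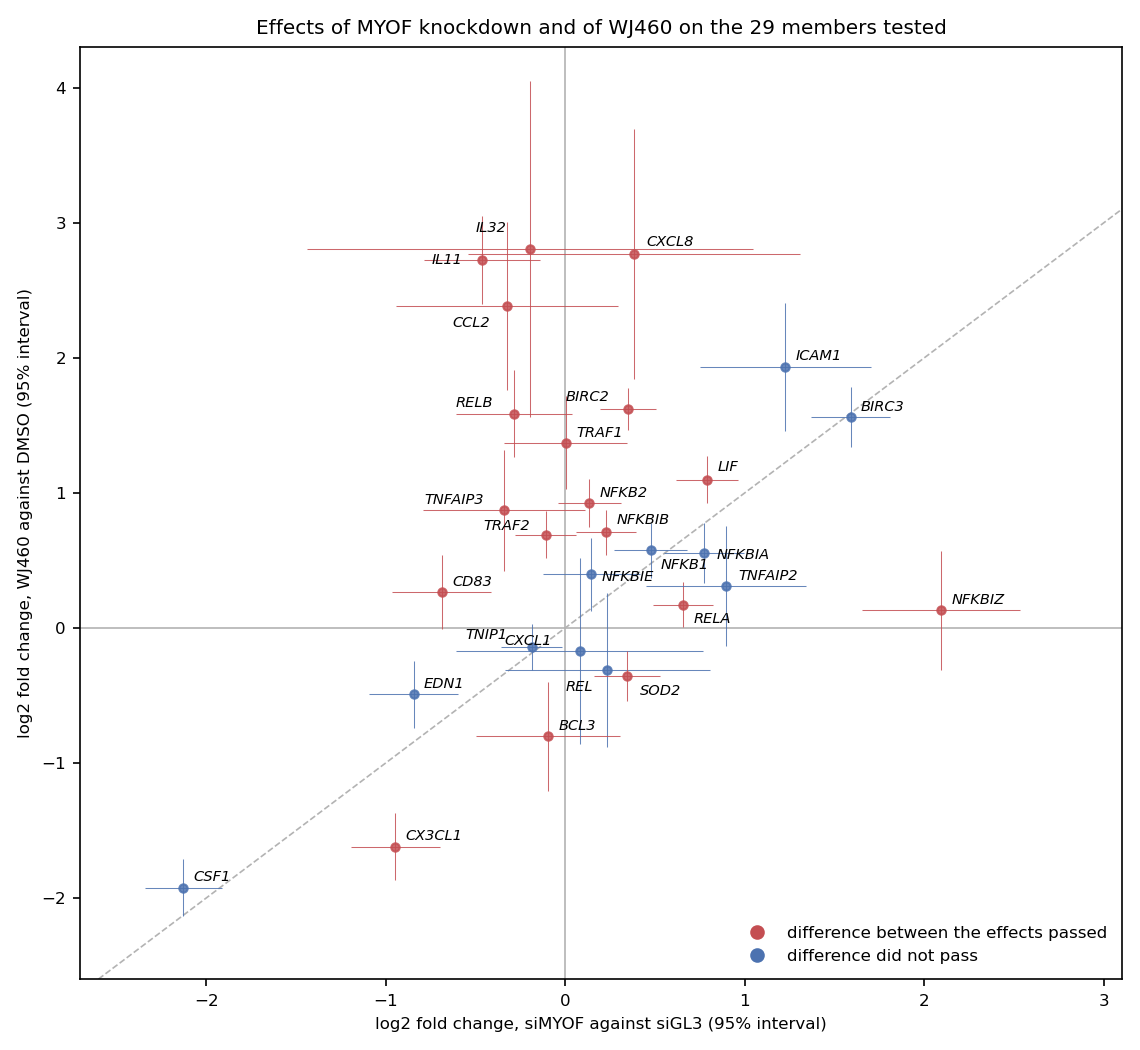
Log2 fold change of each tested member in siMYOF against siGL3 (horizontal axis) and in WJ460 against DMSO (vertical axis), with limma's 95% intervals and the line of equal effects dashed. Members whose effects differed between the treatments are in red (18 of 29), and they lie mostly above the line, with IL11, IL32, CXCL8 and CCL2 above 2 on the vertical axis only. IL32 is in red but entered the tests only through its WJ460 libraries, so its position is a description.

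By direction, 7 members were higher under both treatments (NFKB1, NFKBIA, NFKBIB, BIRC2, BIRC3, LIF and ICAM1) and 3 were lower under both (CSF1, CX3CL1 and EDN1), where 11.6% of all genes were higher in both and 8.87% lower in both. IL11 was lower in siMYOF and higher in WJ460, and SOD2 went the other way, where 5.52% and 6.05% of all genes did so. Another 9 passed as higher in WJ460 only, and 3 as higher in siMYOF only, where 10.2% and 10.4% of all genes did so. The 9 include IL32, which entered the tests only through its WJ460 libraries. BCL3 passed as lower in WJ460 only and CD83 as lower in siMYOF only, where 10.7% and 11.5% of all genes did so. REL, TNIP1 and CXCL1 passed in neither, where 25.3% of all genes passed in neither. Whether an effect differs between the treatments is a separate test, given below as the siMYOF effect minus the WJ460 effect: 5 members were higher in this difference, 13 were lower and 11 did not pass, where 24.2% of all genes were higher and 24.0% lower, and its median was -0.31 over the members and -0.0058 over all genes. Without IL32, 12 of 28 were lower.

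**Figure D3:**
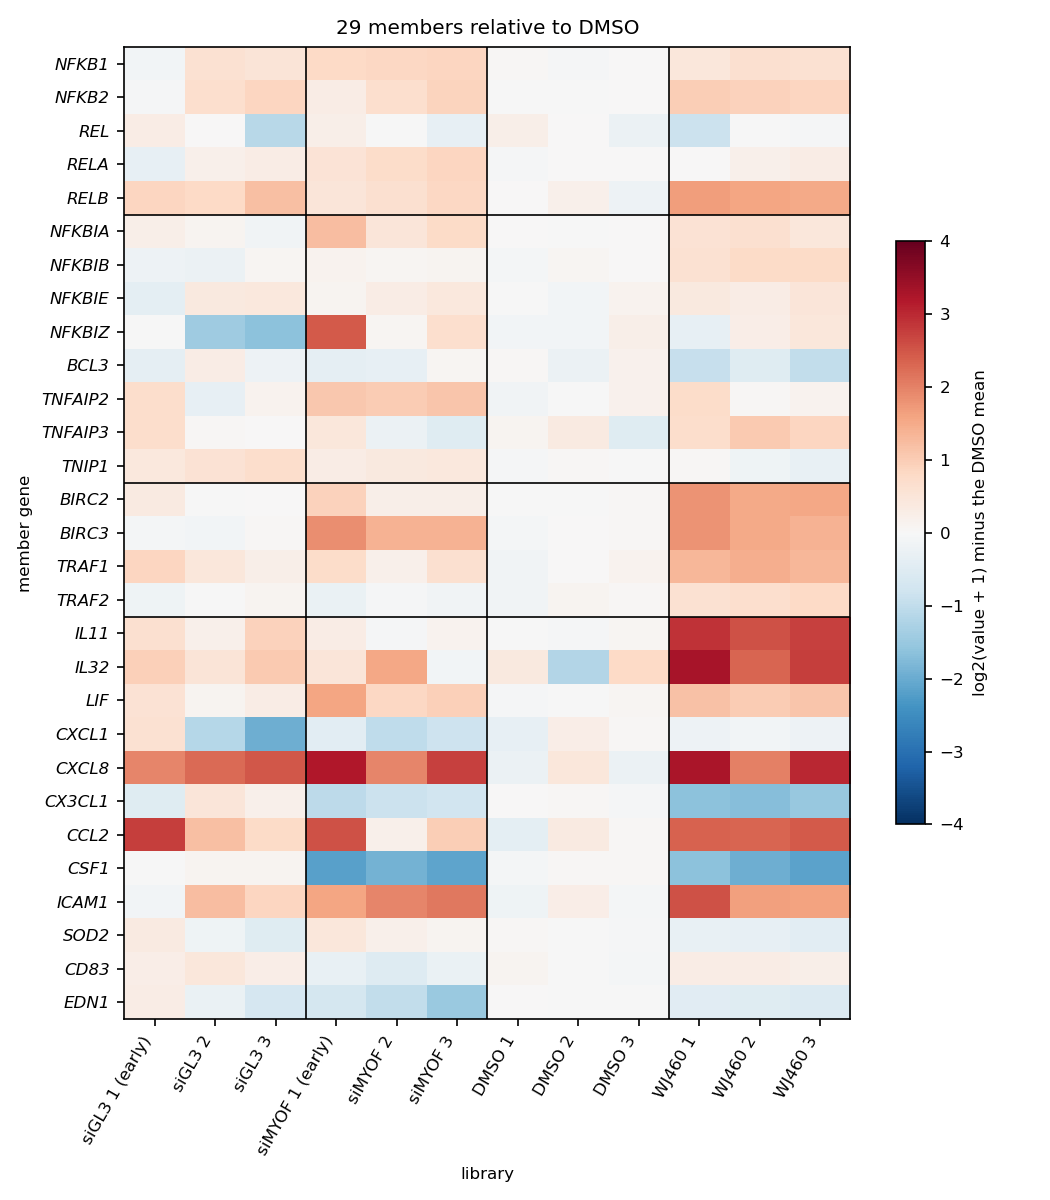
Log2(value + 1) of each tested member in each of the 12 libraries, minus its mean over the 3 DMSO libraries (color, log2 units), with members in rows by role and libraries in columns by group. All 3 WJ460 columns are red for IL11, IL32, CXCL8 and CCL2, the siRNA columns are red for CXCL8 too, and CSF1 is blue in all siMYOF and WJ460 columns.

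Among the 5 subunits, NFKB1 and RELA were higher in siMYOF, and NFKB1, NFKB2 and RELB were higher in WJ460. Over all genes, 28.0% were higher in siMYOF and 27.3% in WJ460. NFKB1 (ENSG00000109320, chr4:102501330-102617302, plus strand), which encodes the precursor of p50, measured 825, 1358 and 1272 normalised reads in siGL3 and 1523, 1559 and 1611 in siMYOF. Its levels in DMSO and WJ460 were 904, 848 and 895 and 1212, 1376 and 1361. Each treated library was above each of its controls, with log2 fold changes of 0.47 (adjusted p = 0.000428, SE 0.10) in siMYOF and 0.57 (adjusted p = 7.15e-05, SE 0.10) in WJ460. In siGL3, the early library was well below both late ones, and the knockdown effect was 0.88 for the early pair and 0.27 among late libraries.

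RELA (ENSG00000173039, chr11:65653599-65663090, minus strand), the subunit with the main activation domain of the canonical route, measured 1399, 1999 and 2165 in siGL3 and 2570.0, 2892 and 3182 in siMYOF. In DMSO and WJ460 it measured 1709, 1766 and 1787 and 1779, 2024 and 2144. The siMYOF libraries all exceeded the siGL3 libraries, whereas those of WJ460 overlapped those of DMSO in level. RELA rose in siMYOF with a log2 fold change of 0.65 (adjusted p = 1.36e-06, SE 0.08), while in WJ460 the value was 0.17 (95% interval 0.0053 to 0.34, adjusted p = 0.0772), and the difference between the effects was 0.48 (adjusted p = 0.00158, SE 0.11), which did not pass without the batch term (adjusted p = 0.0977). Without WJ460 replicate 1, the WJ460 value of RELA was 0.25 and passed (adjusted p = 0.0134), and it also passed at 0.17 without replicate 1 of siGL3 (adjusted p = 0.0483) or of siMYOF (adjusted p = 0.0488). With the DMSO and WJ460 libraries fitted alone, the value of 0.17 passed too (adjusted p = 0.0365).

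RELB (ENSG00000104856, chr19:45001461-45038192, plus strand), the partner of p52, passed in WJ460 but not in siMYOF. Its levels were 54.2, 61.8 and 47.2 in DMSO and 175, 163 and 156 in WJ460, and 98.1, 93.7 and 125 in siGL3 and 76.8, 84.2 and 97.6 in siMYOF. WJ460 stood about 3-fold above DMSO with no overlap, and the siMYOF and siGL3 libraries overlapped. The log2 fold changes were 1.59 (adjusted p = 1.17e-07, SE 0.16) in WJ460 and -0.29 (95% interval -0.61 to 0.039, adjusted p = 0.129) in siMYOF, and the effects differed by -1.87 (adjusted p = 1.36e-06, SE 0.22). Without siGL3 replicate 2, the siMYOF value of RELB was -0.41 and passed (adjusted p = 0.0474).

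NFKB2 (ENSG00000077150, chr10:102394110-102402524, plus strand), which encodes the precursor of p52, resembled RELB. It measured 502, 502 and 512 in DMSO and 999.8, 959 and 919 in WJ460, a rise of 0.92 (adjusted p = 4.96e-08, SE 0.084) on the log2 scale. In siGL3 and siMYOF it measured 491, 807 and 909.6 and 625, 814 and 935, with the early library the lowest of each group. The siMYOF value was 0.13 (95% interval -0.042 to 0.31, adjusted p = 0.191), and the effects differed by -0.79 (adjusted p = 2.36e-05, SE 0.12), or at an adjusted p of 0.0523 without the batch term. Leaving out siGL3 replicate 3 or siMYOF replicate 2 brought the siMYOF value to 0.21 (adjusted p = 0.045) and 0.22 (adjusted p = 0.0428), past the threshold.

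REL (ENSG00000162924, chr2:60881491-60931612, plus strand), a subunit best known from lymphoid cells, was low in all groups. It measured 115, 94.9 and 43 in siGL3, 111, 93.3 and 74.3 in siMYOF, 109, 94.9 and 78.7 in DMSO and 51.4, 91.8 and 89.8 in WJ460. The groups overlapped, and the log2 values were 0.23 (95% interval -0.34 to 0.80, adjusted p = 0.489) for siMYOF and -0.31 (95% interval -0.88 to 0.26, adjusted p = 0.352) for WJ460.

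Of the 8 inhibitors and feedback regulators, 4 were higher in siMYOF and none lower, while in WJ460 4 were higher and 1 was lower, beside 28.0% higher and 25.9% lower over all genes in siMYOF and 27.3% and 25.6% in WJ460. NFKBIA (ENSG00000100906, chr14:35401079-35404749, minus strand) encodes IkB alpha, the inhibitor that NF-kB itself induces and whose window heads the sequences above. It measured 319.9, 296 and 248 in siGL3 and 650.1, 387 and 469 in siMYOF, and 276, 269 and 276 in DMSO and 409, 425 and 374 in WJ460. Both treatments lay above their controls in each library, at 0.77 (adjusted p = 5.63e-06, SE 0.11) and 0.55 (adjusted p = 0.000242, SE 0.11) on the log2 scale. The difference between the effects did not pass, at 0.22 (95% interval -0.093 to 0.54, adjusted p = 0.238).

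NFKBIB (ENSG00000104825, chr19:38899700-38908893, plus strand) encodes IkB beta, which NF-kB induces less readily. It measured 1325, 1275 and 1584 in siGL3 and 1665, 1587 and 1625 in siMYOF, a small rise of 0.23 (adjusted p = 0.022, SE 0.08). That call did not hold in the late libraries alone (0.18, adjusted p = 0.144), with total reads as the scale (0.12, adjusted p = 0.204), or without replicate 1 or 2 of siGL3 or replicate 1 or 3 of siMYOF (adjusted p of 0.0506 to 0.145). Nor did it hold with the siGL3 and siMYOF libraries fitted alone (adjusted p = 0.0541). Under WJ460 the rise was clearer, from 1425, 1597 and 1524 in DMSO to 2286, 2577 and 2563, a log2 fold change of 0.71 (adjusted p = 6.43e-07, SE 0.08), and the effects differed by -0.48 (adjusted p = 0.00169, SE 0.11).

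NFKBIE (ENSG00000146232, chr6:44258166-44265788, minus strand), the gene of IkB epsilon, measured 144, 136 and 161 in DMSO and 194, 179 and 207 in WJ460. The log2 fold change was 0.40 (adjusted p = 0.0146, SE 0.13), and the call was lost without DMSO replicate 2 (adjusted p = 0.0664), without WJ460 replicate 3 (adjusted p = 0.0619) and with total reads as the scale (adjusted p = 0.123). In siGL3 and siMYOF it measured 112, 192 and 195 and 158, 179.8 and 199, with overlap and a value of 0.14 (95% interval -0.12 to 0.41, adjusted p = 0.361).

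The strongest rise of any member in siMYOF was that of NFKBIZ (ENSG00000144802, chr3:101827991-101861022, plus strand), which encodes IkB zeta, a nuclear IkB protein that acts on a subset of secondary targets such as IL6. NFKBIZ measured 74.6, 27.1 and 23.4 in siGL3 and 417, 79.7 and 119 in siMYOF, a log2 fold change of 2.09 (adjusted p = 1.24e-07, SE 0.21), or 4.27-fold. All siMYOF libraries exceeded all siGL3 libraries, and the late siMYOF libraries lay near or above the DMSO level of 68.9, 69.5 and 87.5, with the late siGL3 libraries below it. Against DMSO, NFKBIZ in siGL3 was lower, at a log2 value of -1.63 (adjusted p = 2.8e-05, SE 0.22). The knockdown effect was 2.47 for the early pair and 1.91 among late libraries. In WJ460 it measured 60, 89.7 and 102, overlapping DMSO, at 0.13 (95% interval -0.31 to 0.57, adjusted p = 0.627), and the effects differed by 1.96 (adjusted p = 2.38e-05, SE 0.30), which did not pass without the batch term (adjusted p = 0.0782).

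BCL3 (ENSG00000069399, chr19:44747705-44760044, plus strand) encodes another nuclear IkB protein, which joins p50 or p52 pairs. It fell in WJ460, from 96.5, 78.3 and 105 in DMSO to 48.2, 65.7 and 46, a log2 fold change of -0.80 (adjusted p = 0.00163, SE 0.19) with no overlap. In siGL3 and siMYOF it measured 71.2, 113 and 79.5 and 71.8, 74 and 98.7, at -0.095 (95% interval -0.50 to 0.31, adjusted p = 0.7).

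TNFAIP3 (ENSG00000118503, chr6:137867214-137883314, plus strand) encodes A20, a ubiquitin-editing enzyme that shuts the pathway down. It measured 44.3, 53 and 28.5 in DMSO and 66.4, 84.5 and 75.2 in WJ460, a rise of 0.87 (adjusted p = 0.00219, SE 0.21). Its levels in siGL3 and siMYOF were 67.2, 41.8 and 41.2 and 56.5, 34.1 and 28.8, at -0.34 (95% interval -0.79 to 0.11, adjusted p = 0.19), and the effects differed by -1.21 (adjusted p = 0.00275, SE 0.30). TNFAIP2 (ENSG00000185215, chr14:103121476-103137439, plus strand), a TNF-induced gene, rose instead in siMYOF, to 107, 101 and 109 from 82, 39.5 and 55.2 in siGL3, at 0.89 (adjusted p = 0.00158, SE 0.21). For TNFAIP2 the WJ460 libraries, at 84.7, 52.2 and 55, overlapped those of DMSO, at 45.3, 49.6 and 56.1, and the difference between the effects was 0.58 (95% interval -0.048 to 1.22, adjusted p = 0.12). TNIP1, the gene of a protein that binds A20, ranged over 595 to 1180.1 in the 12 libraries and passed under neither treatment. Its values were -0.19 (95% interval -0.36 to -0.017, adjusted p = 0.0585) in siMYOF and -0.14 (95% interval -0.31 to 0.029, adjusted p = 0.155) in WJ460. In siMYOF, TNIP1 passed as lower with the replicate number as a block (adjusted p = 0.0467), with TMM scaling (adjusted p = 0.046), in edgeR (adjusted p = 0.036), with total reads as the scale (adjusted p = 0.00732) and without WJ460 replicate 1 (adjusted p = 0.0259) or 3 (adjusted p = 0.0446). In WJ460 it passed as lower without WJ460 replicate 1 (-0.23, adjusted p = 0.0174) and with total reads as the scale (-0.30, adjusted p = 0.00683).

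Of the 4 signalling proteins, all 4 were higher in WJ460 and BIRC2 and BIRC3 also in siMYOF, beside 27.3% and 28.0% of all genes. BIRC2 and BIRC3 encode cIAP1 and cIAP2, ubiquitin ligases that join TNF receptor complexes and keep NIK low, and TRAF1 and TRAF2 encode adaptors that bring them there. BIRC3 (ENSG00000023445, chr11:102317484-102339403, plus strand) and BIRC2 (ENSG00000110330, chr11:102347211-102378670, plus strand) are neighbours with 7807 bases between them. BIRC3 measured 487, 479 and 532 in siGL3 and 1865, 1357 and 1339 in siMYOF. It measured 491, 522 and 533 in DMSO and 1780.0, 1473 and 1347 in WJ460. The control libraries of both kinds were close together and all treated libraries lay well above them. The log2 fold changes were 1.59 (adjusted p = 1.37e-09, SE 0.11) in siMYOF and 1.56 (adjusted p = 2.71e-09, SE 0.11) in WJ460, and they differed by 0.027 (95% interval -0.29 to 0.34, adjusted p = 0.902).

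BIRC2 responded in the same direction but by unequal amounts. It measured 2017, 1988 and 2089 in DMSO and 7002, 5849.9 and 5953 in WJ460, 3.08-fold the DMSO level, with a log2 fold change of 1.62 (adjusted p = 1.36e-11, SE 0.074). In siGL3 and siMYOF it measured 2615, 1989.6 and 2042 and 3809, 2407 and 2398. The 2 late siMYOF libraries lay below the early siGL3 library, but within each batch siMYOF was above siGL3, at 0.54 for the early pair and 0.25 among late libraries. The siMYOF log2 fold change was 0.35 (adjusted p = 0.000535, SE 0.074), and the effects differed by -1.27 (adjusted p = 2.21e-08, SE 0.10).

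TRAF1 (ENSG00000056558, chr9:120902393-120929173, minus strand), itself an NF-kB target, measured 43.3, 48.5 and 53.1 in DMSO and 122, 133 and 123 in WJ460, a log2 fold change of 1.37 (adjusted p = 1.32e-06, SE 0.16). In siGL3 and siMYOF it measured 88.7, 66.6 and 57.1 and 80.4, 55.8 and 75.4, which overlapped, at 0.0015 (95% interval -0.34 to 0.35, adjusted p = 0.995). TRAF2 (ENSG00000127191, chr9:136881912-136926607, plus strand) measured 502, 588 and 566 in DMSO and 838, 885 and 947 in WJ460, at 0.69 (adjusted p = 1.16e-06, SE 0.082). Its siGL3 and siMYOF levels were 484, 544 and 594 and 458, 538 and 505, at -0.11 (95% interval -0.28 to 0.062, adjusted p = 0.273). For both adaptors the siMYOF effect was lower than the WJ460 effect, by -1.37 (adjusted p = 8.35e-05, SE 0.23) for TRAF1 and -0.80 (adjusted p = 1.54e-05, SE 0.12) for TRAF2.

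**Figure D4:**
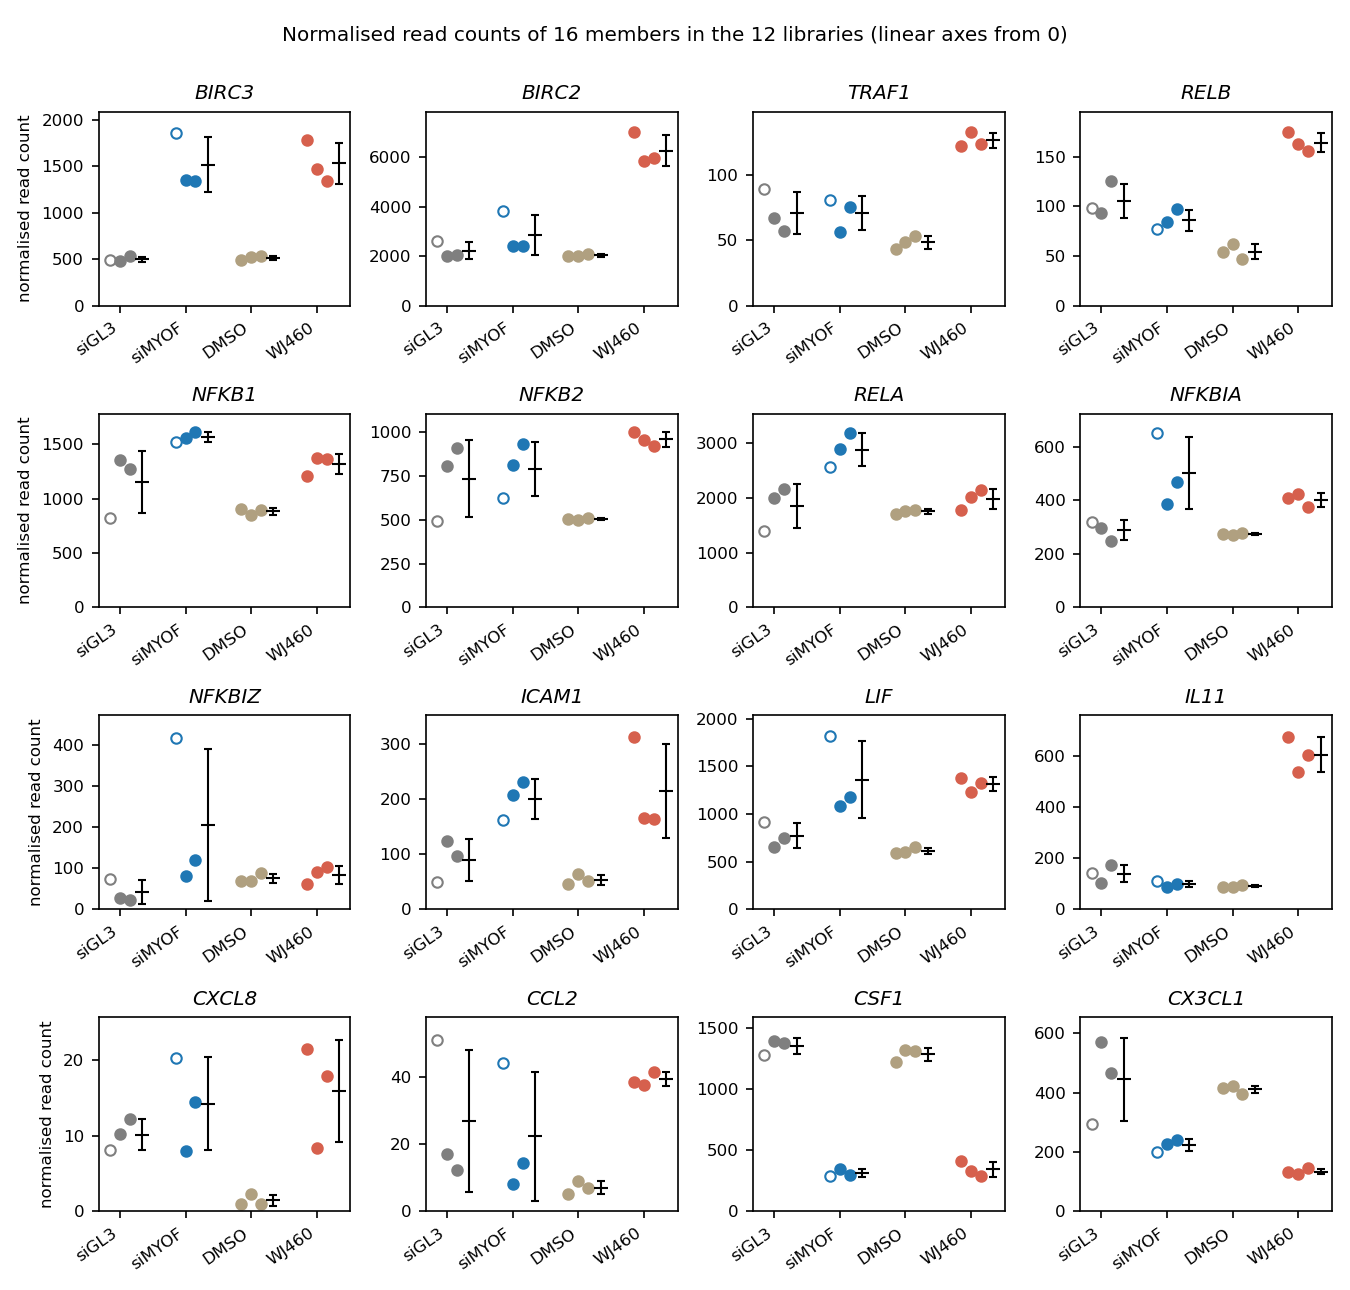
Normalised read counts of 16 members in each library, by group, on linear axes that start at 0, with open circles for the early batch and bars for the mean ± SD of the 3 libraries. BIRC3 is higher in all siMYOF and WJ460 libraries than in their controls, TRAF1, RELB and IL11 are highest in the WJ460 libraries, and CSF1 and CX3CL1 are lower in both.

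Among the cytokines, only 4 of 10 members were tested. LIF was higher and CSF1 lower under both treatments, while IL11 was called in opposite directions. IL32 entered the tests only through its WJ460 libraries. IL11 (ENSG00000095752, chr19:55364382-55370463, minus strand), a cytokine of the IL-6 family that signals through gp130, measured 88.6, 87.1 and 95.4 in DMSO and 673, 536 and 605 in WJ460. This was 6.61-fold higher, a log2 fold change of 2.72 (adjusted p = 1.77e-10, SE 0.15). In siGL3 and siMYOF it measured 140.5, 104 and 173 and 110.2, 87.6 and 98.7, which overlapped. The siMYOF value was -0.46 (adjusted p = 0.0159, SE 0.15), a call that was lost without siGL3 replicate 3 (-0.24, adjusted p = 0.158) and without siMYOF replicate 2 (-0.40, adjusted p = 0.0655). That call was also lost with the siGL3 and siMYOF libraries fitted alone (adjusted p = 0.0584). The effects differed by -3.19 (adjusted p = 2.95e-09, SE 0.22), the widest gap of any tested member.

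LIF (ENSG00000128342, chr22:30240453-30246759, minus strand), another gp130 cytokine, known in pancreatic tumors as a signal between cancer cells and fibroblasts, rose under both treatments. It measured 911, 656 and 751 in siGL3 and 1822, 1082 and 1178 in siMYOF, at 0.79 (adjusted p = 2.18e-07, SE 0.083). In DMSO and WJ460 it measured 588, 602 and 648 and 1382, 1231 and 1326, at 1.10 (adjusted p = 5.15e-09, SE 0.083). No treated library overlapped its controls in either comparison.

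IL32 (ENSG00000008517, chr16:3065297-3082192, plus strand), a cytokine without a known mouse counterpart, had few reads. It measured 1.97, 0 and 2.95 in DMSO and 21.4, 10.4 and 14.6 in WJ460, and 3.36, 2.26 and 3.74 and 2.17, 5.69 and 1.11 in siGL3 and siMYOF. WJ460 lay above DMSO in each library, and the siMYOF and siGL3 libraries overlapped. IL32 reached the mean of 5 only through the WJ460 libraries, where its mean was 15.5 against 2.58 over the other groups, so its WJ460 values are a description and no test of them is given. The fitted log2 value was 2.80, and 2.21 without DMSO replicate 2, which held no IL32 read.

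CSF1 (ENSG00000184371, chr1:109910242-109930992, plus strand), the macrophage colony-stimulating factor, had the largest fall of any tested member in each treatment. It measured 1277, 1393 and 1375 in siGL3 and 284, 347 and 295 in siMYOF, and 1221, 1313 and 1312 in DMSO and 406, 328 and 287 in WJ460. The groups were far apart in both comparisons, with the control libraries close together. The log2 fold changes were -2.13 (adjusted p = 1.4e-11, SE 0.10) in siMYOF and -1.92 (adjusted p = 1.13e-10, SE 0.10) in WJ460, and the difference between them was -0.20 (95% interval -0.50 to 0.10, adjusted p = 0.258). The fall was -2.16 for the early pair and -2.11 among late libraries.

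Among the 4 chemokines tested, CXCL8 and CCL2 were higher in WJ460, and CX3CL1 was lower under both treatments. CXCL8 (ENSG00000169429, chr4:73740519-73743716, plus strand), which encodes the neutrophil attractant IL-8, measured 0.985, 2.21 and 0.983 in DMSO and 21.4, 8.35 and 18 in WJ460, at 2.77 (adjusted p = 3.53e-05, SE 0.44). It measured 8.06, 10.2 and 12.2 in siGL3 and 20.3, 7.97 and 14.4 in siMYOF. The siRNA libraries of both groups were thus above DMSO, and they overlapped one another, at 0.38 (95% interval -0.54 to 1.31, adjusted p = 0.49). CXCL8 was higher in siGL3 than in DMSO by 2.17 (adjusted p = 0.00175, SE 0.47). The DMSO libraries held only 1, 2 and 1 reads of CXCL8, so the size of both changes against DMSO is uncertain.

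CCL2 (ENSG00000108691, chr17:34255274-34257208, plus strand), the monocyte attractant, measured 4.92, 8.83 and 6.88 in DMSO and 38.6, 37.6 and 41.5 in WJ460, at 2.38 (adjusted p = 1.94e-06, SE 0.30). In siGL3 it measured 51.1, 16.9 and 12.2 and in siMYOF 44.2, 7.97 and 14.4. Both early siRNA libraries were above the WJ460 libraries and the late ones were far lower, and the siMYOF value was -0.33 (95% interval -0.94 to 0.29, adjusted p = 0.372). The effects of the treatments differed by -2.71 (adjusted p = 3.01e-05, SE 0.42).

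CX3CL1 (ENSG00000006210, chr16:57372477-57385044, plus strand), a chemokine that is made as a membrane-bound protein, was lower under both. It measured 295, 570.2 and 468 in siGL3 and 199, 228 and 241 in siMYOF, at -0.95 (adjusted p = 2e-06, SE 0.12), and 415, 421 and 396 in DMSO and 131, 125 and 144 in WJ460, at -1.62 (adjusted p = 3.83e-09, SE 0.12). Neither pair of groups overlapped, and the fall in WJ460 was the deeper, by 0.67 (adjusted p = 0.00273, SE 0.17), a difference that did not pass without the batch term (adjusted p = 0.0829). CXCL1 ranged over 6.55 to 43.7 in the 12 libraries, with no call for either treatment. CXCL1, CXCL2 and CXCL3 are near-identical genes that can share reads, so their values are uncertain to that extent.

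Of the other targets, ICAM1 (ENSG00000090339, chr19:10271093-10286615, plus strand), an adhesion molecule that binds leukocyte integrins, measured 49.1, 124 and 96.4 in siGL3 and 161, 207 and 231 in siMYOF. It measured 46.3, 62.9 and 50.2 in DMSO and 312, 166 and 164 in WJ460. Each treated group lay above its control, at 1.23 (adjusted p = 0.000206, SE 0.22) and 1.93 (adjusted p = 2.04e-06, SE 0.22). The late siGL3 libraries were themselves above DMSO, with a siGL3 against DMSO value of 0.92 (adjusted p = 0.00738, SE 0.24).

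EDN1 (ENSG00000078401, chr6:12290361-12297194, plus strand), the gene of the vasoconstrictor endothelin-1, was lower under both treatments. It measured 803, 549 and 409.9 in siGL3 and 403, 329 and 234 in siMYOF, at -0.85 (adjusted p = 7.87e-06, SE 0.12), and 666, 649.7 and 657 in DMSO and 484, 471 and 448 in WJ460, at -0.49 (adjusted p = 0.00178, SE 0.12). CD83 (ENSG00000112149, chr6:14117256-14136918, plus strand), a marker of mature dendritic cells that NF-kB induces, fell in siMYOF, to 93.5, 79.7 and 95.4 from 138, 158 and 138, at -0.69 (adjusted p = 0.000208, SE 0.13). In DMSO and WJ460 CD83 measured 123, 113 and 108 and 139, 139.8 and 134, without overlap but not past the threshold, at 0.26 (95% interval -0.012 to 0.54, adjusted p = 0.101), and the effects differed by -0.95 (adjusted p = 0.000327, SE 0.19).

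SOD2 (ENSG00000112096), the mitochondrial superoxide dismutase, had opposite signs. It measured 1113, 786 and 633 in siGL3 and 1194, 1007 and 942 in siMYOF, at 0.34 (adjusted p = 0.00286, SE 0.088), and 896, 876 and 857 in DMSO and 707, 693 and 652 in WJ460, at -0.36 (adjusted p = 0.00224, SE 0.088). The siRNA groups overlapped, while WJ460 lay below DMSO in each library. The effects differed by 0.70 (adjusted p = 0.000135, SE 0.13). SOD2 stands in the table under 2 identifiers, and the other one was under the filter.

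The 11 members under the filter were the acute inflammatory cytokines and several chemokines, and none exceeded a normalised count of 8.57 in any library. IL1B and CSF2 had no read in any library. Over the 3 libraries of a group, IL6 had 0 reads in DMSO and WJ460, 1 in siGL3 and 2 in siMYOF. PTGS2, the inducible cyclooxygenase, had 0 reads in DMSO, 1 in WJ460, 1 in siGL3 and 0 in siMYOF, and IL1A had 0, 3, 1 and 2 in the same order. A count of 0 allows up to 3 reads per group, and these limits cover counting error only.

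TNF had 0 reads in DMSO, 5 in WJ460, 0 in siGL3 and 2 in siMYOF, and its neighbour LTB, with 2188 bases between them on chromosome 6, had 0, 4, 1 and 0. CXCL2 had 0, 5, 1 and 3 reads, CXCL3 had 2, 4, 2 and 4, and CXCL5 had 3, 10, 5 and 10. CCL20, an attractant of CCR6-bearing cells, had 2 reads in DMSO, 17 in WJ460, 0 in siGL3 and 7 in siMYOF. The WJ460 libraries of TNF, LTB, CXCL2 and CCL20 each held at least 1 read. At so few reads no fold change or test is given.

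For the levels themselves, values were set per kilobase of annotated exon in the DMSO libraries. NFKBIB was the highest member at 652 ± 37.3 normalised reads per kilobase (SD, n = 3) of the 39 with an exon length, SOD2 having none, followed by BIRC2 at 449.7 ± 11.5. EDN1 at 323 ± 3.89 and RELA at 321 ± 7.38 came next and differed by less than their spread. CSF1 stood at 245 ± 10.1, LIF at 158 ± 8.14 and TRAF2 at 151 ± 12.1, the last 2 again within their spread. The canonical pair of RELA and NFKB1 differed widely on this scale, NFKB1 being at 56.3 ± 1.90 per kilobase. The lengths join all annotated exons of a gene, 15679 bases for NFKB1, 17129 for REL and 5457 for RELA. Undivided, RELA and NFKB1 measured 1754 and 882 in DMSO, a narrower gap, so the order of members depends on these lengths. RELB at 18.1 ± 2.43 and REL at 5.504 ± 0.894 were the lowest subunits. CXCL8 at 0.538 ± 0.273 and IL32 at 0.511 ± 0.468 were the lowest of the tested members.

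The control groups were compared because levels across all 4 groups rest on them. Between siGL3 and DMSO, 8 of the 29 members were higher (NFKB1, NFKB2, RELB, TNIP1, IL11, CXCL8, CCL2 and ICAM1), 4 were lower (NFKBIZ, CXCL1, SOD2 and EDN1) and 17 did not pass, where 16.1% of all genes were higher and 16.0% lower. TNIP1 rose from 709, 760.1 and 718 in DMSO to 973, 1081 and 1180.1 in siGL3, at 0.62 (adjusted p = 3.51e-05, SE 0.086), and RELB by 1.01 (adjusted p = 0.000158, SE 0.16). CXCL1 measured 43.7, 12.4 and 6.55 in siGL3 and 22.6, 34.2 and 29.5 in DMSO, at -1.27 (adjusted p = 0.00934, SE 0.35), with the early siGL3 library above DMSO and the late ones below it. No DMSO library was early, so the early siGL3 library enters this comparison through a batch shift fitted on the siRNA libraries. Without that term 3 members were higher and 0 were lower. Over all 14720 genes tested the calls fell too, from 2363 higher and 2357 lower to 760 and 571. Without siGL3 replicate 3, IL11 (0.25, adjusted p = 0.244), CXCL1 (-0.78, adjusted p = 0.118), EDN1 (-0.26, adjusted p = 0.142) and SOD2 (-0.097, adjusted p = 0.453) did not pass. The call for SOD2 was also lost without any 1 of the DMSO libraries, WJ460 replicate 2 or 3, or siMYOF replicate 3 (adjusted p of 0.0526 to 0.126). That for IL11 was lost without DMSO replicate 1 (adjusted p = 0.0525) or 2 (adjusted p = 0.0553), and that for ICAM1 without siGL3 replicate 2 (0.71, adjusted p = 0.0627). CCL2 lost its call without DMSO replicate 1 (adjusted p = 0.0973), DMSO replicate 3 (adjusted p = 0.0507) or siGL3 replicate 2 (adjusted p = 0.129). Conversely, RELA, CX3CL1 and NFKBIE passed as higher without siGL3 replicate 1 or siMYOF replicate 1 (adjusted p of 0.0228 to 0.0331), and NFKBIB (-0.25, adjusted p = 0.0327) and REL (-0.82, adjusted p = 0.0499) as lower without siGL3 replicate 3 and 2. Transfection, the siRNA itself and the solvent cannot be told apart here. This comparison shares its libraries with both treatment comparisons, so a member that siGL3 raised, such as RELB or ICAM1, has a different baseline in each.

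The knockdown effects were then read by batch. In the early pair, BIRC3 differed by 1.93, ICAM1 by 1.69 and CD83 by -0.56, and in the late libraries these were 1.42, 0.99 and -0.75. All 16 members called in siMYOF had the same sign in both batches, but the calls came from a fit to both batches together. Agreement in sign is thus partly built into that choice. CXCL1 was at -1.02 and 0.63 and CXCL8 at 1.23 and -0.044. Of the 13 members that did not pass, 6 had opposite signs in the batches (CXCL1, CXCL8, BCL3, NFKBIE, REL and TRAF1). In limma, a test of the early effect against the late one passed for MYOF (adjusted p = 0.011) and for none of the 29 members, the smallest adjusted p being 0.0934 for NFKB1. Its early arm is 1 library against 1, assumed to vary like the other libraries, so it does not show that the batches agree. Without the batch term in the fit, BIRC2 (adjusted p = 0.121), NFKBIB (adjusted p = 0.0776), SOD2 (adjusted p = 0.122) and IL11 (adjusted p = 0.0564) did not pass in siMYOF, nor did NFKBIE (adjusted p = 0.14), SOD2 (adjusted p = 0.113) and EDN1 (adjusted p = 0.107) in WJ460.

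**Figure D5:**
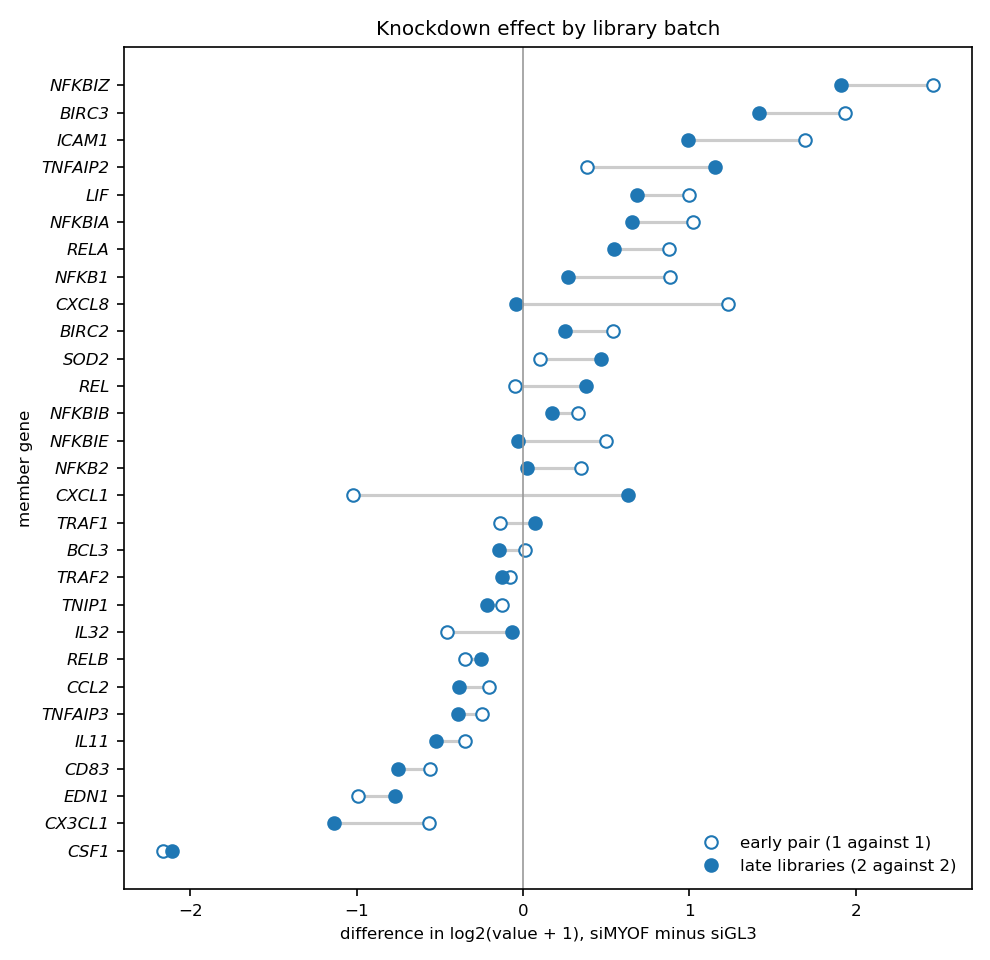
Difference in log2(value + 1) between siMYOF and siGL3 for each tested member, in the early pair (open circles, 1 library against 1) and in the late libraries (filled circles, means of 2 against 2). The members at the top and bottom of the plot, from NFKBIZ and BIRC3 to CSF1, have both points on the same side of 0, and CXCL1 and CXCL8 have the widest gaps.

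Some differences between the 2 treatment effects depended on the batch term or on single libraries. Without the batch term, those of NFKBIZ (adjusted p = 0.0782), RELA (adjusted p = 0.0977), NFKB2 (adjusted p = 0.0523), CX3CL1 (adjusted p = 0.0829), BCL3 (adjusted p = 0.112) and LIF (adjusted p = 0.376) did not pass. For LIF the difference of -0.31 (adjusted p = 0.0362, SE 0.12) did not pass without replicate 1 or 2 of DMSO, 1 or 3 of WJ460, 3 of siGL3, or 2 or 3 of siMYOF (adjusted p of 0.0585 to 0.111). For BCL3 the difference of 0.71 (adjusted p = 0.0371, SE 0.27) did not pass without replicate 1 or 3 of any group (adjusted p of 0.07 to 0.101). In the other direction, the difference for ICAM1, -0.71 (95% interval -1.38 to -0.036, adjusted p = 0.0769), passed without WJ460 replicate 2 or 3 or without replicate 1 of siGL3 or siMYOF (adjusted p of 0.0342 to 0.0435). Those of NFKB1 (-0.30, adjusted p = 0.0259) and TNFAIP2 (0.84, adjusted p = 0.039) passed without siGL3 replicate 1, and with nearly the same values without siMYOF replicate 1, TNFAIP2 also without WJ460 replicate 1 (0.80, adjusted p = 0.0276). The difference for EDN1, -0.35 (95% interval -0.70 to -0.005, adjusted p = 0.0883), passed with the replicate block (adjusted p = 0.0173), without siGL3 replicate 3 (adjusted p = 0.0102) and without siMYOF replicate 2 (adjusted p = 0.0069).

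Beyond the members, 3 further lists of pathway genes were counted in the same fit. Of 17 tested receptors, 8 were higher and 3 lower in siMYOF, and 5 were higher and 4 lower in WJ460. Of 39 adaptors and kinases, 15 were higher and 9 lower in siMYOF, and 12 were higher and 8 lower in WJ460. Of 22 other target genes, 12 were higher and 1 lower in siMYOF, and 8 were higher and 4 lower in WJ460. These shares stand beside 28.0% higher and 25.9% lower over all genes in siMYOF, and 27.3% and 25.6% in WJ460. In WJ460 the receptors, at 29.4% and 23.5%, and the adaptors and kinases, at 30.8% and 20.5%, were near those of all genes. The median log2 fold changes of the 3 lists were 0.066, 0.19 and 0.29 in siMYOF and 0.21, 0.21 and 0.29 in WJ460.

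The TNF receptor gene TNFRSF1A rose in siMYOF, by 0.56 (adjusted p = 8.55e-07, SE 0.065), and was lower in WJ460, at -0.65 (adjusted p = 1.55e-07, SE 0.065). TNFRSF12A, the receptor of TWEAK, rose in both, by 0.44 (adjusted p = 0.0002, SE 0.084) and 1.30 (adjusted p = 8.62e-10, SE 0.084), and TLR5, the flagellin receptor, was lower in both, at -1.52 (adjusted p = 0.000256, SE 0.30) and -2.07 (adjusted p = 1.07e-05, SE 0.30). Among adaptors and kinases, BCL10 and RIPK2, which relay antigen receptor and NOD signals to the IkB kinases, rose in siMYOF by 1.33 (adjusted p = 1.89e-10, SE 0.08) and 1.505 (adjusted p = 1.36e-09, SE 0.10). They were higher in WJ460 as well, by 0.67 (adjusted p = 1.21e-06, SE 0.08) and 1.23 (adjusted p = 2.34e-08, SE 0.10). The kinase gene CHUK rose by 0.46 (adjusted p = 3.73e-06, SE 0.062) and 0.38 (adjusted p = 4.13e-05, SE 0.062). SHARPIN, a subunit of the linear ubiquitin ligase, was lower in siMYOF, at -0.97 (adjusted p = 1.22e-06, SE 0.12), where WJ460 had -0.20 (95% interval -0.44 to 0.045, adjusted p = 0.161). The kinase gene IKBKE was lower in both, at -0.98 (adjusted p = 0.00244, SE 0.25) in siMYOF and -1.21 (adjusted p = 0.000413, SE 0.25) in WJ460.

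Of the other targets, PLAU, the gene of urokinase, measured 1663, 4072 and 4177 in siGL3 and 12638, 17892 and 20164 in siMYOF, and its receptor PLAUR 30.2, 71.1 and 75.8 and 139, 217 and 243. Both were above their controls in each library, at 2.44 (adjusted p = 9.33e-07, SE 0.17) and 1.81 (adjusted p = 4.07e-08, SE 0.17), and in WJ460 at 1.88 (adjusted p = 7.34e-06, SE 0.17) and 2.48 (adjusted p = 1.26e-09, SE 0.17). BCL2A1, a survival protein of the BCL2 family, rose by 1.504 (adjusted p = 1.08e-07, SE 0.14) in siMYOF and 2.13 (adjusted p = 3.22e-09, SE 0.14) in WJ460. IL18 rose in both, by 0.27 (adjusted p = 0.0124, SE 0.085) in siMYOF and 2.19 (adjusted p = 3.93e-12, SE 0.085) in WJ460. TNFSF9 was lower in WJ460, at -0.90 (adjusted p = 0.000694, SE 0.19), and had a siMYOF value of 0.15 (95% interval -0.25 to 0.56, adjusted p = 0.528).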

How the data were processed

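The 12 PANC-1 libraries were made with a stranded mRNA kit. Per the labels and methods, the authors aligned reads to GRCh38 with STAR, quantified them with Salmon, and deposited a table of normalised values (signal). The deposited values were read counts divided by a size factor per library: 100% came back as whole reads within 0.001 reads. Depth was 12335147 to 19847210 reads per library, which limits genes with few reads.

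From these values, log2(value + 1) of the 14720 genes with a mean of at least 5 was fitted with limma 3.58.1 (R 4.3.3), with trend and robust variance, over all 12 libraries with group and the early or late batch as terms. Adjusted p is Benjamini-Hochberg over these genes for each comparison, called under 0.05. The alternatives were edgeR 4.0.16 and DESeq2 1.42.0 on the recovered reads, TMM and total read scaling, pseudocounts of 0.5 and 5, a mean of at least 20 or no filter, no batch term, compared groups only, late libraries or early pair only, a replicate block and leaving out each library. Late libraries alone for the difference, and the test of early against late effects, were added after seeing the data. WJ460 against DMSO was not fitted in the late libraries alone. The code was tested on simulated data.

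The members and lists were chosen with earlier results of these data known. All tested members were described, with values in every library for those past the threshold and for subunits and IkB proteins, and other pathway genes were named from up to 4 per list, direction and comparison with the smallest p. Samples were grouped by title. Same-numbered siRNA libraries deviated together (r = 0.818, 0.530 and 0.595). Unlike-numbered late siRNA libraries also did (r = 0.493 and 0.450). Same-numbered libraries of DMSO and WJ460 did not (r = 0.026, -0.002 and 0.0046). Deviations were taken from the mean of each group, which ties the libraries of a group to one another. Replicate 1 is the only early library of each siRNA group, so for it batch and replicate number cannot be told apart. The main fit used no pairs, and only the replicate block used the replicate numbers. Gene positions are from GENCODE v44 on GRCh38, and promoters from RefSeq on GRCh38.p14.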

Additional observations from a re-analysis of the deposited data

Results flagged for a closer look

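For 18 of the 29 tested members, limma's test of the siMYOF effect minus the WJ460 effect passed an adjusted p of 0.05. Over all genes, 24.2% were higher and 24.0% lower in this difference. Without IL32, 5 of 28 members were higher and 12 lower. In log2 units, the subunits were at -0.79 for NFKB2, -1.87 for RELB and 0.48 for RELA. The inhibitors were at -0.48 for NFKBIB, 1.96 for NFKBIZ, 0.71 for BCL3 and -1.21 for TNFAIP3. The signalling proteins were at -1.27 for BIRC2, -1.37 for TRAF1 and -0.80 for TRAF2. The cytokines were at -3.19 for IL11, -3.001 for IL32 and -0.31 for LIF, and the chemokines at -2.38 for CXCL8, 0.67 for CX3CL1 and -2.71 for CCL2. The other targets were at 0.70 for SOD2 and -0.95 for CD83. A negative value means a lower effect in siMYOF than in WJ460. IL32 entered the tests only through its WJ460 libraries, with a mean of 15.5 there and 2.58 over the other groups, so its value is a description. Without the batch term, the differences of NFKBIZ, RELA, NFKB2, CX3CL1, BCL3 and LIF did not pass.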

How the results depend on the processing

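With total reads as the scale, which shifted the median of all genes by -0.11 in siMYOF and -0.16 in WJ460, 8 members were lower in siMYOF with a member median of 0.024, the WJ460 median was 0.41 with 2639 genes higher, and the medians were -0.26 for the difference and 0.079 for siGL3 against DMSO. Without the batch term, WJ460 had 2597 genes higher and 3 members lower, the difference had 2235 genes higher, 2074 lower and 1 member higher, and siGL3 against DMSO had 760 genes higher and 571 lower with 3 members higher and 0 lower. Late libraries alone gave medians of 0.026 in siMYOF, -0.41 for the difference and 0.20 for siGL3 against DMSO, which was also 0.20 with the compared groups only. The early pair alone gave 0.010 in siMYOF, and a mean of at least 20 gave -0.25 for the difference. Leaving out 1 library at a time moved the member median between -0.069 and 0.15 in siMYOF, 0.54 and 0.63 in WJ460, -0.41 and -0.22 for the difference, and 0.12 and 0.20 for siGL3 against DMSO, with 2 to 5 members lower in the last. The cause of these shifts was not tested.

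With the replicate number as a block, 11 members were higher and 6 lower in siMYOF, 17 and 5 in WJ460, and 5 and 14 in the difference. The block added TNIP1 in siMYOF and EDN1 in the difference and changed no other member's call. No member changed direction while called under any alternative. Without a filter on low values, the differences of LIF (adjusted p = 0.079) and BCL3 (adjusted p = 0.0742) did not pass. Members with few reads, such as IL32, CXCL8 and the 11 under the filter, are those that depth limits most.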
